A study of Mus musculus with 15 samples.

Results

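The muscleblind genes Mbnl1, Mbnl2 and Mbnl3 and the CELF genes Celf1 and Celf2 were followed through the count and splicing tables of CD8+ T cells primed in mice with or without costimulation. These 5 genes were chosen by symbol, from 55536 genes of the count table, and matched to the GENCODE M21 annotation of the mouse genome (mm10). They carry 84 of the 141862 annotated transcripts and 90 of the 138940 events in the authors' table of percent spliced in (PSI, the share of transcripts that include a segment). All 90 events lay inside the annotated gene of that symbol.

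CD8+ T cells of OT-I mice, which carry a transgenic receptor for an ovalbumin peptide, were transferred into C57BL/6J recipients. All recipients of the 2 groups compared received the peptide. The Ag group also received rat IgG as a control, and the Ag+Costim group agonist antibodies against OX40 (CD134) and 4-1BB (CD137). The donor mice lacked Rag1 or Rag2. The study used mice of both sexes, aged from several weeks to several months by its methods and a narrower range of weeks by its reporting summary. Transferred cells were sorted from spleen and lymph nodes as CD8+ CD45.1+ Vα2+ Vβ5+ cells, on day 4 by the labels (the study's methods give a slightly shorter time). Each group had 5 libraries. The Naive libraries were not analysed here.

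Muscleblind proteins are zinc finger proteins that bind YGCY motifs in pre-mRNA and switch exons on or off depending on where they bind, and they also steer 3' end choice and mRNA localisation. CELF proteins carry RNA recognition motifs, bind GU-rich RNA, often act against muscleblind proteins on the same exons, and, in the case of CELF1, promote decay of short-lived mRNAs with GU-rich elements. Both families regulate their own pre-mRNAs. In T cells, CELF2 is known as a regulator of signal-induced splicing and CELF1 as a regulator of mRNA decay after activation.

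Several exons of these genes are shared between paralogs and alternatively spliced, and they are shown because the splicing results below concern them. The sequences are the sense strand of the GENCODE M21 transcripts (mm10), and capitals mark bases that are identical in every paralog listed for that exon. The 54-base exon of Mbnl1 (chr3:60614683-60614736, plus strand) and that of Mbnl2 (chr14:120395712-120395765, plus strand) are both coding, and their lengths are multiples of 3.
Mbnl1 54-base exon: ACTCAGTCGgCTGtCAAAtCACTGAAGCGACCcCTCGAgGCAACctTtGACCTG
Mbnl2 54-base exon: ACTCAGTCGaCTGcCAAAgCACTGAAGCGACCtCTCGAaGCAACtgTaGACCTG
The 36-base exon exists in all 3 muscleblind genes, at chr3:60621423-60621458 (plus strand) in Mbnl1, chr14:120403336-120403371 (plus strand) in Mbnl2 and chrX:51126126-51126161 (minus strand) in Mbnl3.
Mbnl1 36-base exon: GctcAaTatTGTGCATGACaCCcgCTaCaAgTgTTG
Mbnl2 36-base exon: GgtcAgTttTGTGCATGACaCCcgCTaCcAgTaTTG
Mbnl3 36-base exon: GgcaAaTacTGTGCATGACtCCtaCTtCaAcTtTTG
The 95-base exon, whose length is not a multiple of 3, follows it at chr3:60622146-60622240, chr14:120404638-120404732 and chrX:51123817-51123911.
Mbnl1 95-base exon: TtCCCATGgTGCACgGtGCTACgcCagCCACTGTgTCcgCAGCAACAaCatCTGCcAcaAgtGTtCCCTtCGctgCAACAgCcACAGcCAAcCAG
Mbnl2 95-base exon: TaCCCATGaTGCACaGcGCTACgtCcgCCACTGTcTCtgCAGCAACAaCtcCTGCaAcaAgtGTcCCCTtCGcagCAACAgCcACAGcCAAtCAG
Mbnl3 95-base exon: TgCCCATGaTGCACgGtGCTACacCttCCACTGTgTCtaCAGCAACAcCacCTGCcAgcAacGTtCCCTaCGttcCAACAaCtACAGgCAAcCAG
The 80-base exon of Celf2 (chr2:6607882-6607961, minus strand) was the single core exon of a member whose PSI differed between the groups by more than 0.05, and its counterpart in Celf1 lies at chr2:91003811-91003890 (plus strand).
Celf2 80-base exon: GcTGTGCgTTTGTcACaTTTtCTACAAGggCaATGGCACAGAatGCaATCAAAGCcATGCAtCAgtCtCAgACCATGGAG
Celf1 80-base exon: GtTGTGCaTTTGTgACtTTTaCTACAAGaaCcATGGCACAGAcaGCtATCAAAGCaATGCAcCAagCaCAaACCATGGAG
Mbnl1 and Mbnl2 were identical at 46 of 54 bases of the first exon (85.2%), 31 of 36 of the second (86.1%) and 81 of 95 of the third (85.3%). Mbnl3 was further from both, with 72.2% and 66.7% identity to Mbnl1 and Mbnl2 in the 36-base exon and identity at 76 and 70 of the 95 bases of the third. Celf2 and Celf1 were identical at 63 of 80 bases (78.8%).

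Estimated counts per library summed to 59.6 to 449.4 M (mega) in Ag and 332.3 to 639.1 M in Ag+Costim, and Ag replicate 3 was the library at 59.6 M. The sorted cells had the markers of CD8+ T cells, with 6 of 6 markers present in every library and a sum of 3115 to 6127 CPM (counts scaled to a common library total) in Ag and 4123 to 5028 in Ag+Costim. The CPM values are scaled by the trimmed mean of M values (TMM). Ag libraries stood apart from one another in other markers. The mean level of 6 B cell markers was 4.88, 6.01 and 5.27 on the log2 scale in Ag replicates 1, 3 and 4, against 2.08 to 3.42 in the other 7 libraries, although Pax5 was at or under 4.91 CPM everywhere and at 0 in Ag replicates 2 and 5. The 6 erythroid markers summed to 854 CPM in Ag replicate 3 and to at most 98.5 CPM elsewhere. The mean of 21 cell cycle genes was 5.99 and 6.07 in Ag replicates 1 and 4, 8.27 to 9.10 in the other Ag libraries and 8.99 to 9.27 in Ag+Costim. The part of these differences in the results below was not tested, except where values are given, and in bulk RNA fewer cells of a type and less RNA per cell cannot be told apart.

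With TMM scaling, Celf1, Celf2 and Mbnl1 were higher in all 5 Ag+Costim libraries than in all 5 Ag libraries, as were 11.3% of genes at 10 CPM or more. Mbnl1 overlapped between the groups under each of the other 3 scalings tried, and with total counts no member was separated. Celf1, which encodes a splicing and mRNA decay factor (ENSMUSG00000005506.16, chr2:90940382-91019497), was at 113, 160, 127, 140 and 128 CPM in Ag replicates 1 to 5 and at 205, 197, 188, 220 and 199 CPM in the same order of Ag+Costim replicates. Its lowest Ag+Costim library was above its highest Ag library, Ag replicate 2. The group means were 134 ± 17.5 and 202 ± 11.6 CPM (SD, n = 5 each), a log2 fold change of 0.60 (SE 0.13).

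Celf2, the CELF gene best known from T cell splicing (ENSMUSG00000002107.18, chr2:6539694-7509563), was at 192, 259, 207, 216 and 237 CPM in the Ag replicates and at 294, 300, 294, 342 and 318 CPM with costimulation, again without overlap. The means were 222 ± 26.3 and 310 ± 20.5 CPM (SD, n = 5 each), a log2 fold change of 0.48 (SE 0.13). Its gene body overlaps short annotated RNAs, and the kit does not mark strand, so that their reads cannot be separated by strand. Mbnl1, the most abundant muscleblind gene in these cells (ENSMUSG00000027763.13, chr3:60472830-60629750), was at 397, 443, 399, 471 and 295 CPM in the Ag replicates and at 542, 545, 512, 572 and 549 CPM with costimulation. The groups did not overlap, and Ag replicate 5 was the lowest. The gene overlaps short annotated RNAs on the same strand, whose reads could be counted to either. The means were 401 ± 67.0 and 544 ± 21.3 CPM (SD, n = 5 each), a log2 fold change of 0.44 (SE 0.15).

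**Figure D1:**
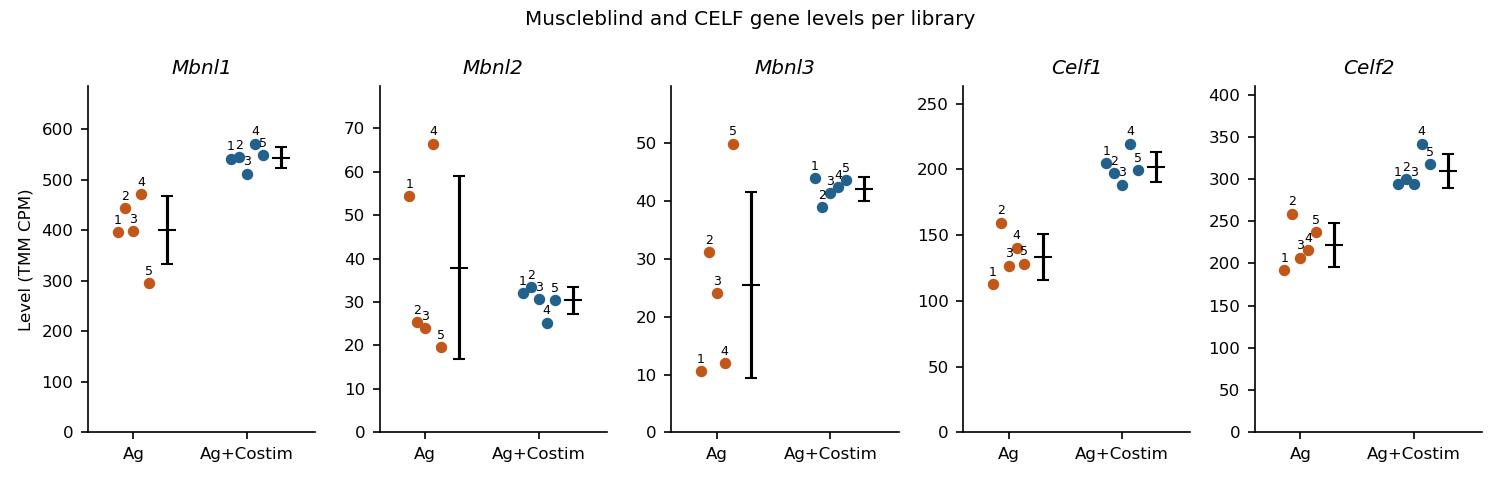
Level of each gene in each library in TMM CPM (vertical axes start at 0), with replicate numbers above the points and mean ± SD (n = 5) beside them. Mbnl1, Celf1 and Celf2 do not overlap between the groups on this scale, whereas Mbnl2 is highest and Mbnl3 lowest in Ag replicates 1 and 4.

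None of the 5 genes passed the test across all genes. edgeR's quasi-likelihood test with Benjamini-Hochberg (BH) adjustment over 24262 genes called 0 genes (0% of those tested), and the members' adjusted p were 0.15 for Celf1, 0.20 for Celf2, 0.24 for Mbnl1, 0.29 for Mbnl3 and 0.54 for Mbnl2. At an unadjusted p under 0.05 by edgeR stood 4501 genes (18.6%), of which genes higher in Ag+Costim made up 7.89% of all tested, and among them were Celf1, Celf2 and Mbnl1. DESeq2 called 6214 of 43379 genes (14.3%) and 2 members, Celf1 (adjusted p = 0.00013) and Celf2 (adjusted p = 0.0011), both as higher, beside 1.79% of genes called higher. Without Ag replicate 3 it called 1820 genes (9.23% of 19719) and again 2 members as higher. limma voom, weighting libraries by quality, called 12632 genes (52.1%) and all 5 members, Mbnl2 as lower (log2 fold change -0.82) and the other 4 as higher, with adjusted p between 2.9e-05 and 0.0060. Genes called higher were 25.7% and genes called lower 26.3% there. In that fit the median log2 fold change of genes at 10 CPM or more was 0.44, and Mbnl1, at 0.33, was below it.

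The count of genes without overlap depended on how libraries were scaled. With TMM, 3 members were higher in all Ag+Costim libraries, beside 4.48% of all genes tested and 11.3% of the 8620 genes with a mean of at least 10 CPM. With DESeq2 size factors these were Celf1 and Celf2, beside 7.32% of the genes with a mean of at least 10 CPM. With upper quartile scaling they were again Celf1 and Celf2, beside 3.7% of those genes. With total counts there were 0 members, beside 7.66%, since Celf1 then reached 175 CPM in an Ag library and 172 CPM in an Ag+Costim library. TMM also moved the median log2 fold change of genes at 10 CPM or more to 0.24, against 0.12 with DESeq2 size factors, 0.02 with upper quartile scaling and 0.01 with total counts. Relative to the TMM median, the log2 fold changes were 0.36 for Celf1, 0.24 for Celf2, 0.20 for Mbnl1, 0.48 for Mbnl3 and -0.56 for Mbnl2. The sign of each member's change was the same under every scaling.

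Mbnl2 and Mbnl3 varied among the Ag libraries far more than among the Ag+Costim libraries, and in opposite directions. Mbnl2 (ENSMUSG00000022139.17, chr14:120275669-120431697), which is best known from the brain, was at 54.3, 25.4, 23.9, 66.4 and 19.6 CPM in Ag replicates 1 to 5 and at 31.99, 33.5, 30.6, 25.2 and 30.5 CPM in Ag+Costim. The groups overlapped, because Ag replicates 1 and 4 were above every other library and the remaining Ag libraries were at the lower end of the Ag+Costim range or below it. The means were 37.9 ± 21.04 and 30.4 ± 3.11 CPM (SD, n = 5 each), with a log2 fold change of -0.32 (SE 0.33). Without Ag replicate 4 that value was -0.01, and without Ag replicate 1 it was -0.14. An antisense RNA is annotated within Mbnl2, and its reads cannot be separated without strand.

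Mbnl3 (ENSMUSG00000036109.17, chrX:51117269-51206532), a muscleblind gene associated with proliferating and undifferentiated cells, was at 10.5, 31.2, 24.1, 12.0 and 49.9 CPM in the Ag replicates and at 43.9, 38.9, 41.3, 42.5 and 43.6 CPM in Ag+Costim. Ag replicates 1 and 4 were the lowest libraries and Ag replicate 5 the highest of all 10. The means were 25.6 ± 16.1 and 42.0 ± 2.04 CPM (SD, n = 5 each), with a log2 fold change of 0.72 (SE 0.37). Without Ag replicate 5 it was 1.13, still not called by edgeR (BH-adjusted p = 0.080).

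The levels of both genes went with the level of the cell cycle genes in the same libraries. Ag replicates 1 and 4, with cell cycle means of 5.99 and 6.07 on the log2 scale, were those with high Mbnl2 and low Mbnl3, and they also had the highest means of 10 naive and memory genes, at 8.15 and 8.28 against 6.91 to 7.50 in the other 8 libraries. Over all 10 libraries the correlation between Mbnl2 and Mbnl3 was r = -0.81 in log2 CPM, a description of libraries that share their scaling, and it was r = 0.09 over the 8 libraries without Ag replicates 1 and 4. B cell markers were high in the same 2 libraries and highest in Ag replicate 3, where Mbnl2 was at 23.9 CPM. The 4 CD4 T cell markers summed to 17.98 and 26.3 CPM in Ag replicates 1 and 4 and to 3.15 to 8.77 CPM in the other 8 libraries, mostly through Zbtb7b (8.85 and 14.9 CPM) and Cd40lg (6.52 and 10.07 CPM), while Cd4 itself was at 1.68 and 0.71 CPM there and highest in Ag replicate 3 (5.06 CPM). The part of the cell cycle and of other cells in the levels of Mbnl2 and Mbnl3 was not tested.

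**Figure D2:**
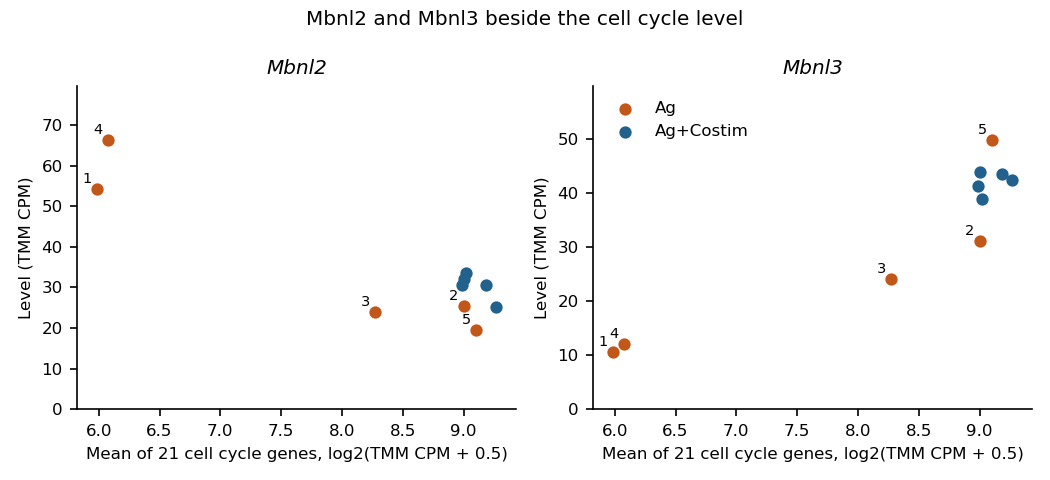
Mbnl2 (left) and Mbnl3 (right) in TMM CPM against the mean of 21 cell cycle genes in log2(TMM CPM + 0.5), 1 point per library, with replicate numbers for the Ag libraries. Ag replicates 1 and 4, at 5.99 and 6.07 on the horizontal axis, hold the highest Mbnl2 and the lowest Mbnl3.

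Levels between genes were compared per transcript length, as TPM (each transcript's count over its length, scaled to a common total). In Ag+Costim the order was the same in 5 of 5 libraries: Mbnl1 at 283 ± 12.4 TPM, Celf2 at 114 ± 16.5, Celf1 at 42.9 ± 2.35, Mbnl3 at 23.1 ± 1.02 and Mbnl2 at 16.0 ± 1.77 (SD, n = 5). Each neighbour in this order was separated in every library, the closest being Mbnl3 and Mbnl2 with a ratio of 1.19 to 1.66. In Ag the order of the upper 3 was the same in 5 of 5 libraries, with Mbnl1 at 246 ± 76.5, Celf2 at 85.9 ± 8.95 and Celf1 at 31.8 ± 6.49 TPM. Mbnl2 at 24.7 ± 17.2 and Mbnl3 at 13.6 ± 5.53 TPM did not differ beyond their spread there, nor did Celf1 and Mbnl2.

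Ratios of 2 members within a library do not depend on library scaling. Mbnl2 over Mbnl3 was 4.70, 0.78, 1.18, 5.54 and 0.40 in Ag replicates 1 to 5 and between 0.60 and 0.84 in Ag+Costim. Ag ratios were found above and below the Ag+Costim range, with replicates 1 and 4 above it by the widest margin and replicate 5 below. Celf1 over Celf2 varied less, from 0.29 to 0.41 in Ag and from 0.32 to 0.42 in Ag+Costim. Mbnl1 over Celf1 was 6.00 to 9.17 in Ag and 6.18 to 6.77 in Ag+Costim. All 10 ratios overlapped between the groups, and these ratios were chosen after the levels had been seen.

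Genes whose pattern was most like a member's were searched among the 8620 genes at 10 CPM or more, by Pearson's r of log2 CPM over the 10 libraries. Celf1 was most like Ap2b1 (r = 0.99), Tbc1d15 (r = 0.98) and Ddx42, an RNA helicase (r = 0.98), and Celf2 most like Tbccd1, Tbc1d15 and the SUMO protease gene Senp1 (r = 0.99 each). Mbnl3 was most like Tcf3, which encodes the E protein E2A, Got1, an aspartate aminotransferase, and Rbbp4, a chromatin assembly factor subunit (r = 0.99 each). Genes like Mbnl2 included Atf7ip and Nr3c1, the glucocorticoid receptor gene (r = 0.99 and 0.98), and Mbnl1 was most like Hltf, Mtmr6 and Foxj3 (r = 0.98, 0.97 and 0.97). Among the members, Celf1 and Celf2 were the closest pair (r = 0.97), followed by Mbnl1 and Celf1 (r = 0.85). All of these values share the libraries and their scaling.

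Related genes and known targets were counted from lists, with 0 genes called by edgeR in any list (all 24262 genes, 0%). The first list held 14 genes related to these families or listed beside them, most of them splicing factors, with Dmpk and Cnbp included. Of these, 13 were tested (not Celf6), 5 with a higher and 8 with a lower value in Ag+Costim. The median log2 fold change was -0.14 against -0.32 over all genes tested. At an unadjusted p under 0.05 by edgeR stood 6 of the 13, beside 18.6% of all genes tested. Among the 6, Khdrbs1 (Sam68) at 143 ± 44.9 and 201 ± 10.2 CPM and Ptbp1, the polypyrimidine tract binding protein gene, at 350 ± 156 and 566 ± 54.3 CPM (SD, n = 5 each) were the abundant ones. The neuronal relatives Celf4 (2.39 ± 3.44 and 0.39 ± 0.15 CPM) and Celf3 (0.74 ± 0.95 and 0.08 ± 0.06 CPM) spread widely in Ag, with 8.53 and 2.35 CPM in Ag replicate 3 and at most 1.19 and 0.88 CPM in the other Ag libraries. The mean level of the 14 genes on the log2 scale was 3.85 in that library, which also had the highest erythroid and B cell markers, and 2.41 to 2.63 in the other 9. Without it, 1 of the 13 had an unadjusted p under 0.05 by edgeR, and the median log2 fold change was 0.10, beside 12.5% and a median of -0.12 over all genes.

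Of 25 genes with muscleblind-regulated exons, a list that includes Mbnl1 and Mbnl2, 23 were tested, 6 higher and 17 lower, with a median log2 fold change of -0.58 and 9 (39.1%) at an unadjusted p under 0.05 by edgeR. Over all genes tested, 62.3% had a lower value, the median was -0.32 and 18.6% had such a p. The mean level of the list was again highest in Ag replicate 3, at 3.93 on the log2 scale against 2.46 to 3.19 in the other 9 libraries, and without that library 8 of the 23 had an unadjusted p under 0.05 by edgeR, with 17 lower and a median of -0.66, beside 12.5% and a median of -0.12 over all genes. The 3 with the lowest p were Insr, the insulin receptor gene (7.65 ± 4.93 and 1.74 ± 0.47 CPM), Add1, an adducin gene (425 ± 78.6 and 667 ± 29.1 CPM, without overlap) and Tead1, a transcription factor gene (1.39 ± 2.34 and 0.09 ± 0.04 CPM), each as Ag and Ag+Costim (SD, n = 5 each). Of 10 CELF splicing targets, 9 were tested, 5 higher and 4 lower, with a median of 0.17. Insr, Celf2 itself and Clcn1 (0.60 ± 0.94 and 0.05 ± 0.03 CPM) had the lowest p there. The 3 genes with GU-rich elements in their mRNAs, on which CELF1 is known to act, had values of 0.57 for Tnfrsf1b, 0.31 for Junb and 0.05 for Jun as log2 fold changes, with edgeR adjusted p of 0.20, 0.29 and 0.95. DESeq2 called 3 relatives (all lower), 7 muscleblind targets (1 higher, 6 lower), 3 CELF targets (1 higher, 2 lower) and 1 of the 3 GU-rich genes (higher). These were counted among the 24262 genes tested by edgeR, of which DESeq2 called 775 higher and 2438 lower. Without Ag replicate 3 it called 1 relative (lower), 4 muscleblind targets (1 higher, 3 lower), 2 CELF targets (1 higher, 1 lower) and the same number of GU-rich genes. Of the same 24262 genes it then called 734 higher and 1064 lower. Tead1 and Clcn1 were at 5.55 and 2.26 CPM in Ag replicate 3 and at most 0.78 and 0.30 CPM in the other Ag libraries, whereas Insr was high in Ag replicates 1, 3 and 4 (9.98, 12.0 and 11.6 CPM). The part of other cells in these list values was not tested.

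Transcript shares, computed from counts divided by transcript length, differed most between the groups in Mbnl1. Mbnl1-211 took 20.9, 26.9, 23.9, 22.4 and 23.2% of Mbnl1 in Ag replicates 1 to 5 and 37.3, 30.5, 37.7, 38.5 and 39.6% in Ag+Costim. Every Ag+Costim library was above every Ag library, and Ag+Costim replicate 2 was the closest to them. The means were 23.5 ± 2.25% and 36.7 ± 3.60% (SD, n = 5 each), a difference of 13.2 percentage points. This transcript starts near the upstream end of the gene (chr3:60473079-60628200), has an annotated coding sequence of 289 codons and skips the first coding exon of the long transcripts.

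The other Mbnl1 transcripts over 5% were each lower or spread across both groups. Mbnl1-201, with the longest coding sequence among them (381 codons), was at 6.23 ± 4.35% in Ag and 3.56 ± 1.44% in Ag+Costim. Mbnl1-218 (347 codons) was at 9.51 ± 3.61% and 9.59 ± 1.74%, and Mbnl1-207 (341 codons) at 10.3 ± 6.80% and 11.4 ± 4.81%. Mbnl1-221, a short form of 182 codons, was at 12.1 ± 4.82% and 7.48 ± 0.97% (SD, n = 5 each). The fragments Mbnl1-222 and Mbnl1-220, of 346 and 367 bases, were at 8.96 ± 1.15% and 7.95 ± 1.15% in Ag and at 6.18 ± 0.62% and 5.77 ± 0.94% in Ag+Costim. Mbnl1-222 was lower in every Ag+Costim library, and since a share per length weighs short transcripts up, it took 1.07% and 0.73% of the counts themselves.

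**Figure D3:**
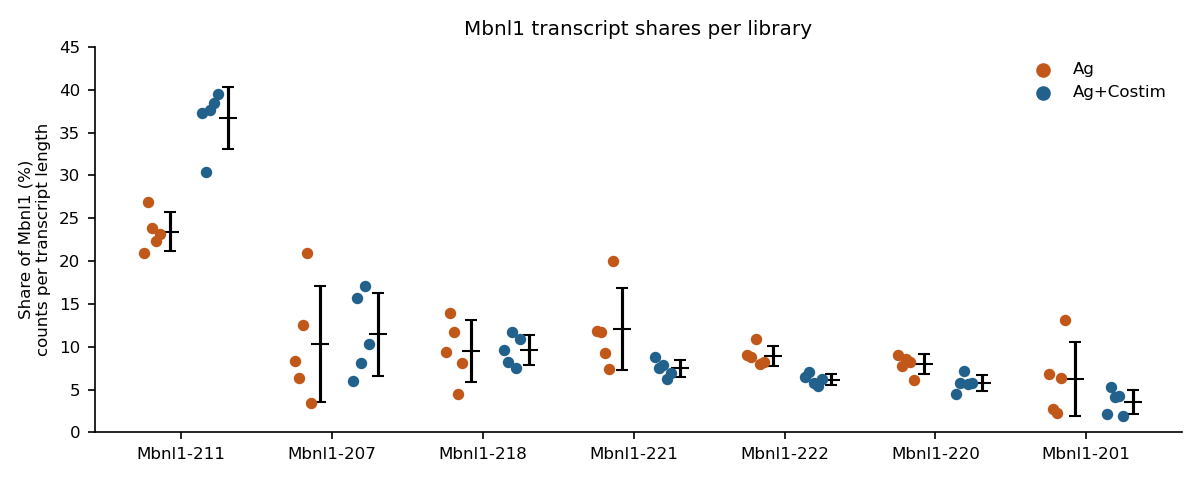
Share of each Mbnl1 transcript over 5% in each library, in percent of the gene's counts per transcript length, with mean ± SD (n = 5) beside the points. Mbnl1-211 lies between 20.9 and 26.9% in Ag and between 30.5 and 39.6% in Ag+Costim without overlap, and the remaining transcripts lie at or below 20.97%.

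The test of transcript usage across genes did not call Mbnl1 or any other member. edgeR's diffSpliceDGE, at a gene-level BH under 0.05 with a share change over 0.1, called 32 of 10441 genes (0.306%), and the lowest unadjusted p of the 59 member transcripts tested was 0.051. Called by limma's diffSplice were 166 genes (1.59%), including Mbnl1 (gene-level BH-adjusted p = 0.019) and no other member, although Mbnl1-211 alone did not pass there (BH-adjusted p = 0.25). Among the 59 transcripts, 1 was higher and 3 were lower without overlap between the groups, beside 1.13% and 1.4% of the 46774 transcripts tested. The 3 lower transcripts were Mbnl1-222 and, named after their values had been seen because they are minor transcripts, Mbnl1-208 and Celf2-213.

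The CELF genes were split between transcripts that differ little in their coding part. Celf1-214 and Celf1-203, which both encode 486 codons, took 30.2 ± 23.0% and 34.2 ± 15.1% in Ag and 38.5 ± 9.72% and 27.0 ± 7.65% in Ag+Costim. In Ag replicate 3 Celf1-214 was at 0.15%, against 48.9% in Ag replicate 1, so that the assignment between them varied within a group more than between the groups. Celf2-201 was at 0% in Ag replicates 2 and 5 and in Ag+Costim replicates 1 and 5 and at 23.1 to 36.4% in the other 6 libraries, with Celf2-202 moving the other way. Both encode 484 codons and share nearly all their exons, and the split between them is therefore uncertain. Celf2-224 (440 codons), the leading Celf2 transcript, was at 39.1 ± 9.69% and 47.7 ± 7.14%.

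Mbnl2 was mostly Mbnl2-204 (355 codons), at 67.4 ± 7.93% in Ag and 69.6 ± 6.62% in Ag+Costim. Mbnl3 was mostly Mbnl3-203 (342 codons), at 68.5 ± 12.4% and 73.1 ± 3.22%, with Mbnl3-202 (246 codons) at 28.1 ± 12.3% and 23.4 ± 2.96% (SD, n = 5 each). Neither gene's groups separated. Transcripts typed as retained intron took 17.1% and 16.6% of Celf2 in Ag replicates 1 and 4, 2.99 to 6.10% in the other Ag libraries and 3.11 to 5.39% in Ag+Costim. For Mbnl1 they took 14.2% and 12.5% in the same 2 libraries, 5.43 to 6.43% in the other Ag libraries and 3.60 to 8.11% in Ag+Costim. The same 2 libraries were high for both genes, and the remaining Ag libraries lay within or close to the Ag+Costim range. Mbnl2 and Mbnl3 differed from this, with their highest retained intron shares in Ag replicate 3 (12.3% and 2.52%), against 6.32% and 8.98% of Mbnl2 and 1.76% and 1.91% of Mbnl3 in Ag replicates 1 and 4.

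Cassette exons were measured as the share of transcript counts that include the exon, among transcripts that include or skip it. The exon with the lowest p in Mbnl1 was the 1049-base exon that holds the first coding part of the long transcripts (chr3:60528756-60529804), which Mbnl1-211 skips. Its inclusion was 56.9, 51.5, 46.6, 46.4 and 63.5% in Ag and 36.7, 44.4, 43.2, 36.6 and 37.4% in Ag+Costim. All Ag+Costim libraries were below all Ag libraries. The means were 53.0 ± 7.29% and 39.6 ± 3.82% (SD, n = 5 each). A noncoding 114-base exon of the 5' region (chr3:60500981-60501094) was included at 3.12 ± 0.72% and 1.67 ± 0.31%, also without overlap.

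No member exon passed limma's test over all exons. Of 14423 exons, 11 were called (0.0763%), and of the 23 member exons 0 were called and 2 had an unadjusted p under 0.05 (the 1049-base and the 114-base exon, with a limma BH-adjusted p of 0.60 for both). Over all exons, 8.26% had an unadjusted p under 0.05. Inclusion was below every Ag library in all Ag+Costim libraries for 2 of the 23 and for 1.14% of all exons, and above for 0 of the 23 and 0.673% of all.

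By transcript counts, the 36-base and 95-base exons conserved between the paralogs were included at different levels in the genes. The groups overlapped for each exon given here. The 54-base exon was included at 27.5 ± 10.02% and 23.8 ± 4.68% in Mbnl1 and at 33.6 ± 5.11% and 35.1 ± 8.72% in Mbnl2. The 36-base exon, which is identical at 86.1% of bases between Mbnl1 and Mbnl2, was at 71.5 ± 9.14% and 75.4 ± 5.24% in Mbnl1, at 8.74 ± 11.6% and 15.7 ± 8.64% in Mbnl2 and at 0.97 ± 0.85% and 1.68 ± 0.50% in Mbnl3, as Ag and Ag+Costim (SD, n = 5 each). The 95-base exon was at 57.1 ± 9.49% and 58.7 ± 4.29% in Mbnl1 and at 94.6 ± 1.88% and 96.0 ± 1.14% in Mbnl2. In Celf2, a coding exon of 144 bases (chr2:6549832-6549975) was at 77.4 ± 6.13% and 72.4 ± 7.61%.

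The authors' PSI gave other levels for some of these exons, from the same libraries. The PSI table holds 1 pooled value per group, so no replicate spread is known, and it is set here beside inclusion from counts per transcript length. The 54-base exon of Mbnl1 had PSI values of 0.033 and 0.045 (Ag and Ag+Costim), against 23.5% and 21.4% from transcripts, and that of Mbnl2 0.099 and 0.087, against 21.8% and 22.7%. The widest gap was the 95-base exon of Mbnl2, with a PSI of 0.191 and 0.222 against 94.7% and 96.0%. For the same exon of Mbnl1 the PSI was 0.922 and 0.928 against 64.4% and 67.9%, and for its 36-base exon 0.916 and 0.921 against 78.1% and 82.5%. For the 95-base exon, Mbnl1 was thus above Mbnl2 by PSI and below it by counts per transcript length. The 144-base exon of Celf2 went in opposite directions, with a PSI of 0.775 and 0.791 against 56.3% and 49.7%.

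Among 13 member exons with both measures, 6 (46.2%) differed by more than 10 percentage points in Ag+Costim, beside 28.2% of 8403 exons of all genes. Among exons at 5 to 95% by transcript counts these were 5 of 7 member exons and 55.5% of 3557. These shares are a description with no test. In Mbnl3 the measures were close for the 36-base exon, with a PSI of 0.030 and 0.026 against 1.92% and 3.12%. The levels of a cassette exon given here therefore depend on the measure. For the 54-base, 36-base and 95-base exons of Mbnl1, Mbnl2 and Mbnl3, PSI and counts per transcript length put the groups less than 5 percentage points apart, wherever each had a value. The 36-base exon of Mbnl2 had no PSI value. By transcript counts not divided by length, its groups were 6.99 percentage points apart (8.74 ± 11.6% in Ag and 15.7 ± 8.64% in Ag+Costim).

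**Figure D4:**
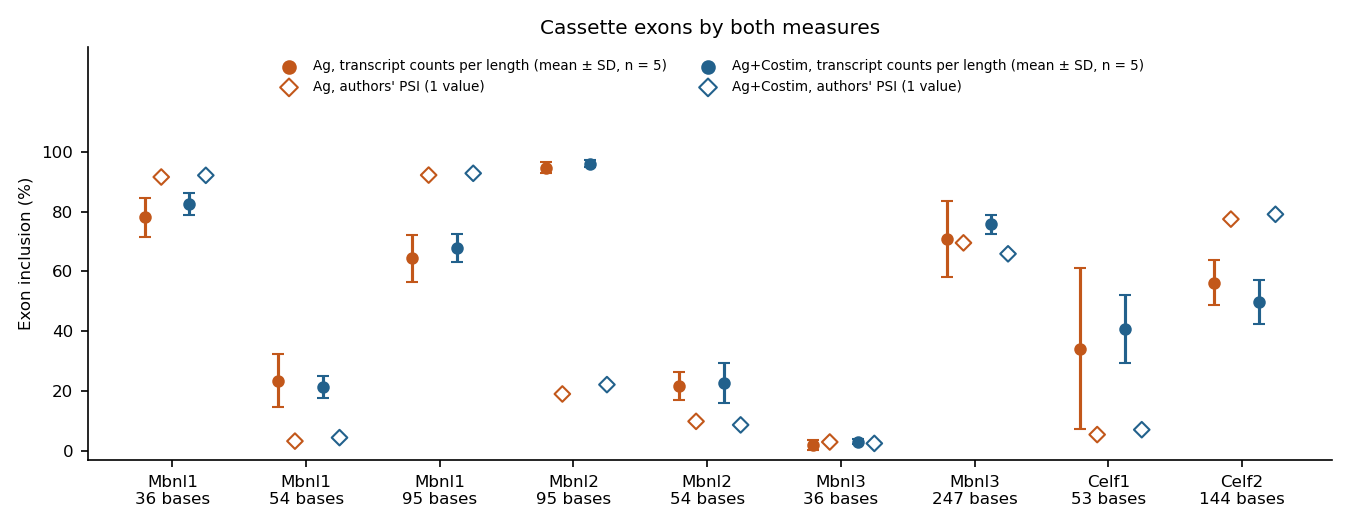
Inclusion of 9 member exons in percent, from counts per transcript length (filled points, mean ± SD, n = 5) and as the authors' pooled PSI (open diamonds, 1 value per group). Group means from counts differ most for the 53-base exon of Celf1, at 34.2 ± 26.9% in Ag and 40.8 ± 11.5% in Ag+Costim, and the 144-base exon of Celf2. That Celf2 exon is at 56.3 ± 7.5% and 49.7 ± 7.4%. The measures differ most for the 95-base exon of Mbnl2.

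By PSI, 12 of the 90 member events (13.3%) differed between the groups by more than 0.05, beside 11.9% of all events in the table, with 7 higher and 5 lower in Ag+Costim. They were 9 of 21 tandem ends (42.9%, beside 43% of all tandem ends), 2 of 9 tandem starts (22.2%, beside 28.7%) and 1 of 48 core exons (beside 5.5%). Of the 12, 6 were in Mbnl1, 4 in Celf2 and 2 in Celf1. Mbnl2 and Mbnl3 had none, with differences of at most 0.031 and 0.042.

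Tandem end events are segments between successive annotated 3' ends in the last exon. In Mbnl1, the end segment of 1 base at chr3:60629381-60629381 had PSI values of 0.246 and 0.402 (Ag and Ag+Costim), and the segment before it (chr3:60629172-60629380) 0.026 and 0.085. The segments beyond, chr3:60629732-60629748 and chr3:60629749-60629750, had 0.492 and 0.326, and 0.236 and 0.181. The 2 nearer segments were thus higher and the 2 farther ones lower in Ag+Costim. The segment at which Mbnl1-211 ends, chr3:60626380-60628200, had a PSI of only 5.58e-05 and 0.0070, although that transcript received 23.5% and 36.7% of Mbnl1 from the counts.

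The annotated ends at chr3:60629731 (Mbnl1-218) and chr3:60629750 (Mbnl1-201) have the polyadenylation signal AATAAA in the last 40 bases of the transcript, and the ends of Mbnl1-207 and Mbnl1-211 have neither AATAAA nor ATTAAA there, in the sense strand. Over 48038 protein-coding transcripts with an annotated end, 47.8% hold AATAAA and 13.4% ATTAAA in the same window. At the other side of the gene, the tandem start chr3:60529149-60529804 had a PSI of 0.896 and 0.961 and the start chr3:60529031-60529148 of 0.104 and 0.039.

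In Celf2, the end segment chr2:6546334-6546779 had PSI values of 0.644 and 0.474 (Ag and Ag+Costim), its neighbour chr2:6546240-6546333 of 0.359 and 0.526, and chr2:6544841-6545634, where Celf2-224 ends, of 0.610 and 0.713. The gene lies on the minus strand, so the first of these is the nearest to the coding part, and among these it was the one that was lower. Segments beyond them were lower too, by less than 0.05 each. They were chr2:6544807-6544840 (0.120 and 0.078), chr2:6543430-6544806 (0.074 and 0.039) and chr2:6541869-6543429 (0.189 and 0.166). No single shift toward nearer or farther ends is therefore read from these segments. The segments of the far ends of Celf2-202 and Celf2-201 were at 0.005 and 0.003, and at 0.003 and 0.0006. The 80-base exon of Celf2 printed above had a PSI of 0.874 and 0.929, with no replicate values, while its Celf1 counterpart had a difference under 0.05. In Celf1, the last end segment of 7 bases (chr2:91019491-91019497) had 0.931 and 0.999 and the segment before it 0.069 and 0.0008.

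**Figure D5:**
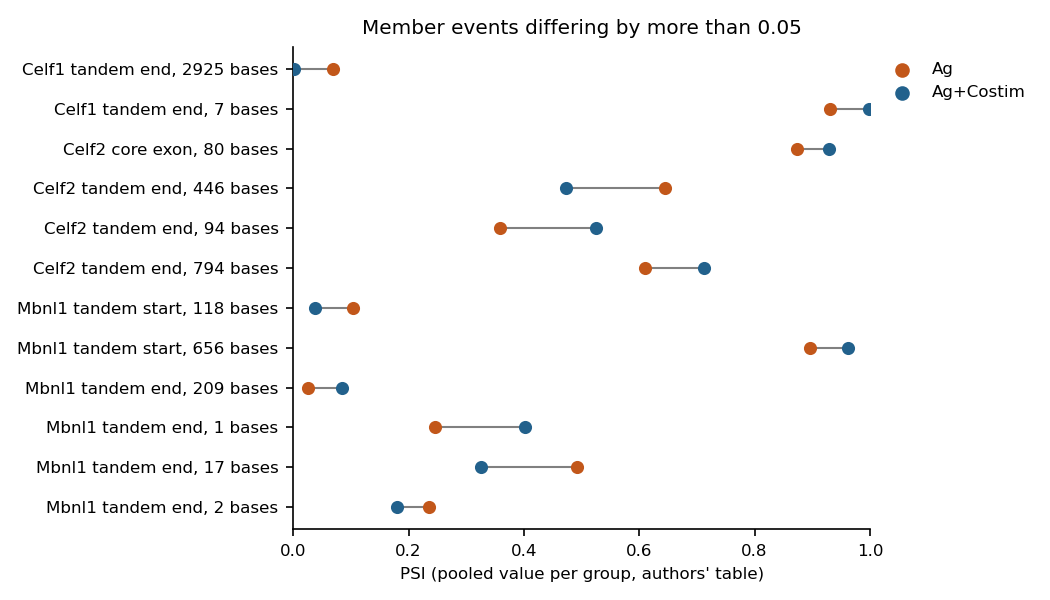
PSI in Ag and Ag+Costim (horizontal axis from 0 to 1, 1 pooled value per group) for the 12 member events that differ by more than 0.05, named by gene, kind and length. Mbnl1 and Celf2 tandem ends differ most, the widest being the 446-base end of Celf2 at 0.644 and 0.474.

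Use of distal 3' ends was also taken per library from the transcript counts, as the mean position of a gene's annotated ends scaled from 0 (nearest) to 1 (farthest). It was 0.938 ± 0.025 and 0.959 ± 0.012 for Mbnl1, 0.926 ± 0.046 and 0.931 ± 0.010 for Mbnl2, 0.966 ± 0.009 and 0.963 ± 0.002 for Mbnl3, 0.9995 ± 0.0004 and 0.9996 ± 0.0002 for Celf1 and 0.991 ± 0.005 and 0.994 ± 0.001 for Celf2 (SD, n = 5 each, Ag and Ag+Costim). The groups overlapped for every member. limma called 0 of 10183 genes (0%), with 10.8% at an unadjusted p under 0.05, and the members' BH-adjusted p were 0.47 to 0.89. This measure merges ends less than 100 bases apart and counts whole transcripts rather than end segments. It is scaled by genomic position between a gene's first and last annotated end, introns included. Shifts between nearby ends of a last exon therefore change it little, and it cannot decide the tandem end differences seen by PSI.

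Exons of the target lists did not pass the test either. Of 99 exons in 17 muscleblind target genes, 0 were called by limma and 4 had an unadjusted p under 0.05, and of 14 exons in 6 CELF target genes 0 were called and 0 were under 0.05. Over all exons, 0.0763% were called and 8.26% had an unadjusted p under 0.05. Ktn1, a kinesin receptor gene whose 87-base exon (chr14:47716874-47716960) had the lowest p among the muscleblind targets, was included at 16.1 ± 15.2% in Ag and 3.94 ± 0.87% in Ag+Costim per transcript length (SD, n = 5 each), with a PSI of 0.314 and 0.257. The 48-base exon of Map2k7, which CELF2 is known to regulate in T cells, was at 17.5 ± 13.4% and 9.66 ± 4.50%, with a PSI of 0.439 and 0.4003.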

How the data were processed

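Poly(A) RNA of sorted CD8+ T cells was sequenced by the authors from 15 samples in 3 groups. Per the labels, reads were aligned with HISAT2 2.1.0 to mm10, sorted with SAMtools 1.9 and quantified with StringTie 2.1.0, and the submitters' processing notes also name DESeq2 1.30.1. The deposited gene and transcript tables hold expected counts (estimated counts from coverage, written as whole numbers by the authors), with no normalization. Their totals are not numbers of reads, and intervals from them would cover counting error only. The authors' deposited splicing table holds PSI as a fraction, 1 pooled value per group. Its columns for the difference and for its probability hold the authors' own comparison and were not used. Naive counts were not analysed here.

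The members and the gene lists were chosen with earlier results of these data known. Entries with no GENCODE M21 gene, 26345 rows with 0.0458 to 0.308% of each library's counts, were left out. Gene counts were tested with edgeR 4.0.16 (filterByExpr, TMM, quasi-likelihood, robust) in R 4.3.3, BH-adjusted over all genes, without a replicate block, since same-numbered libraries share only a number. Alternatives were DESeq2 1.42.0 and limma 3.58.1. Transcript usage was tested with diffSpliceDGE, exon inclusion with limma on log2 ratios of inclusion to skipping counts (pseudocount 0.5, at least 20 counts in 8 libraries) and distal end use with limma on the weighted end position (ends at least 100 bases apart). PSI differences over 0.05 were counted with no test. Scripts were tested on simulated data. The named transcripts are those with a mean share of at least 5%, the named exons at most 6 per gene by lowest p, the named list genes those passing the test or else the 3 with the lowest p, and the genes most alike the 3 with the highest r, of which 1 is not reported here. The ratios and the comparison of PSI with transcript counts were added after the values had been seen. Replicates are separate samples in the labels, so p-values measure the spread between these samples.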

Additional observations from a re-analysis of the deposited data

Results flagged for a closer look

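Of 76 groups of 5 libraries examined over the members' levels, transcript shares, exon inclusion and end use, 2 had a library far from the other 4, where chance gives about 1 in 20. Celf1-208, a Celf1 transcript of 513 codons that starts inside the gene, took 9.69% of Celf1 in Ag+Costim replicate 3 and 0.41 to 1.65% in the other Ag+Costim libraries. Mbnl1-211 took 30.5% of Mbnl1 in Ag+Costim replicate 2 and 37.3 to 39.6% in the other 4. Without that library, the difference between the groups in the share of Mbnl1-211 was 14.8 percentage points in place of 13.2.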

How the results depend on the processing

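The sign of each member's log2 fold change was the same in all 85 alternatives. Leaving out 1 library gave 0.37 to 0.51 for Mbnl1, -0.47 to -0.01 for Mbnl2, 0.53 to 1.13 for Mbnl3, 0.55 to 0.69 for Celf1 and 0.44 to 0.56 for Celf2, with 0 genes called each time. TMM without the filter on low counts raised Mbnl1 to 0.78, Celf1 to 0.93 and Celf2 to 0.81, with a median of 0.56 over genes at 10 CPM or more, and total counts lowered them to 0.13, 0.33 and 0.22. With a replicate block, edgeR called 0 genes and no member at the gene level, and Mbnl1 was at 0.46, Mbnl2 at -0.14, Mbnl3 at 0.95, Celf1 at 0.60 and Celf2 at 0.48. The numbers do not pair the samples: the correlation of deviations between same-numbered libraries was over 0.1 in 1 of 5 pairs (-0.41 to 0.21), and -0.51 to 0.44 between differently numbered ones. The block moved the genes called for transcript usage from 32 to 30 and the exons called from 11 to 0.

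limma with quality weights called 12632 genes and 5 members (Mbnl1 0.33, Mbnl2 -0.82, Mbnl3 1.76, Celf1 0.65, Celf2 0.57), and DESeq2 6214 genes and 2 members (Celf1 0.47, Celf2 0.36). The median over genes at 10 CPM or more was 0.44 with limma and 0.13 with DESeq2. Members without overlap numbered 0 with total counts, beside 7.66% of genes at 10 CPM or more. They numbered 3 to 4 when 1 library was left out, 4 without Ag replicate 5. The share of all genes without overlap was not counted there, and with fewer libraries any gene separates more easily. For transcript usage, limma called 166 genes and 1 member, the higher count minimum 19 genes, and leaving out 1 library 33 to 103 genes with 0 members. Exons called were 7 at 100 informative counts, 4 with a pseudocount of 5 and 7 to 39 without 1 library, and genes called for end use 0 to 56, the most without Ag replicate 5, with 0 member exons or ends called in any. Distal end use changed sign without 1 library in Mbnl2 (-0.00887 to 0.0208) and Mbnl3 (-0.00510 to 0.000629). A PSI difference over 0.1 left 5 member events, and the share of all events past that threshold was not counted. The planned threshold on the authors' probability was not run. The causes were not tested. Added after seeing the data, DESeq2 without Ag replicate 3 called 1820 of 19719 genes in place of 6214 of 43379, and 2 members as before. Among the 24262 genes tested by edgeR, it then called 734 higher and 1064 lower in place of 775 and 2438. Depth as a limit was not tested, and PSI has no replicate error.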
